A study of Homo sapiens with 12 samples.

Results

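The 38 genes described here were the aminoacyl-tRNA synthetase genes of the cytosol and of the mitochondrion, together with a pair of scaffold genes of the cytosolic enzymes. They were taken by gene symbol from the 58735 genes of the expression table. The cytosolic class held 22 genes, of which 20 encode synthetases or their subunits and 2, AIMP1 and AIMP2, encode the scaffold proteins of the multisynthetase complex. The mitochondrial class held 16 genes, each with a symbol that ends in 2. For 13 amino acids, each class held 1 gene of the same specificity.

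An aminoacyl-tRNA synthetase joins an amino acid to the tRNA that carries its anticodon, which is the step where the genetic code is read into protein. Human cells keep separate enzymes for the cytosol and for the mitochondrion, and both sets are encoded in the nucleus. The mitochondrial set serves the few respiratory chain subunits made on mitochondrial ribosomes. KARS and GARS, which charge lysine and glycine, make enzyme forms for both compartments from 1 gene each. Uncharged tRNA activates the kinase GCN2, encoded by EIF2AK4, which acts through ATF4 on genes of amino acid supply, and many cytosolic synthetase genes are known ATF4 targets.

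RNA was sequenced from 12 libraries in 4 groups of 3. The cultures were labelled KGN or COV434, which the authors describe as lines from an adult-type and a juvenile-type granulosa cell tumor. Both were labelled wild type and grown in DMEM/F-12 with serum. In each line, untreated control libraries stood beside libraries from cells kept for 72 h with 77-39, an inhibitor of the mitochondrial deacetylase SIRT3, at a dose labelled 10 μm/ml, whose unit is ambiguous. No vehicle was named for the controls, and no label says that the libraries of a group came from separate cultures, so the p-values measure the spread between these libraries only. The libraries held 15547851 to 18280415 reads on genes, as recovered from the FPKM (reads scaled to gene length and to the library total) and the gene lengths. SARS2 had 21 to 78 reads per library and every other member at least 139.

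Several marker genes went against the cell line labels. FOXL2, the transcription factor that marks granulosa cells and is mutated in KGN, had 2 reads over all 6 libraries labelled KGN but 11.52 to 13.96 FPKM in those labelled COV434. SMARCA2, a chromatin remodelling ATPase known to be silent together with SMARCA4 in COV434, had 13 reads over the libraries labelled KGN. It stood at 4.508 to 6.477 FPKM in the others, where SMARCA4 stood at 6.51 to 12.64 FPKM. SMARCA4 had reads under the label KGN as well, at 2.253 to 2.599 FPKM. WT1 stood at 45.85 to 61.38 FPKM where the label was KGN and had no read elsewhere. The 6 epithelial markers summed to at most 1.34 FPKM under the label KGN but to 437 to 580 FPKM under COV434, nearly all of it KRT7, and the 5 stromal markers to 14.6 to 21.1 and 73.1 to 196 FPKM. The 10 granulosa markers summed to 51.6 to 67.5 FPKM under KGN, most of it WT1, and to 21.4 to 26.3 FPKM under COV434. Apart from WT1, the markers above 1 FPKM in any library, FOXL2, AMH and INHA, all stood higher under COV434. In each line 7 of the 10 lay under 1 FPKM in every library, and FSHR had no read in all 12. The markers of leukocytes and endothelium summed to at most 0.406 FPKM, and those of retina, the tissue that the extraction text names, to at most 0.26 FPKM. The groups are therefore called by their labels throughout, and which culture each name stands for, and its part in the results, was not tested.

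Sequence near the start sites is shown first, since ATF4 and its partners act on many synthetase genes through an element there. This element, CARE, was searched as TGATGCAA on both strands (TTGCATCA on the other) in RefSeq promoter windows on GRCh38.p14 that run from 250 bases before to 50 bases after each start. A window was present for 18 of the 22 cytosolic and 14 of the 16 mitochondrial genes, and none was given for DARS, LARS, VARS, YARS, AARS2 and VARS2. The element stood in 6 of the 18 cytosolic genes and in 0 of the 14 mitochondrial genes, against 1.08% of 27305 genes with a window. With 1 free base, TGATGNAA, GARS and the mitochondrial YARS2 were added, against 4.46% of all genes. Of the 6 genes with the full element, AARS among them, 5 are printed over 30 bases on the strand of the gene, with the element in capitals.
CARS (cysteine, chr11:3057407-3057436, minus strand): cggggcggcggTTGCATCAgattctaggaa
IARS (isoleucine, chr9:92293692-92293721, minus strand): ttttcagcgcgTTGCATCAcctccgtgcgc
MARS (methionine, chr12:57488053-57488082, plus strand): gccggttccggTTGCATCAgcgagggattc
NARS (asparagine, chr18:57621804-57621833, minus strand): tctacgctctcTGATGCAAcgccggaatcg
TARS (threonine, chr5:33440956-33440985, plus strand): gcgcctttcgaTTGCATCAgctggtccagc

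In these 5 genes the first base of the element lay close to the start site, before it at −13 in IARS, −4 in MARS and −2 in CARS, and after it at base 3 in TARS and base 15 in NARS. A match of letters is a description of these windows, and binding of ATF4 was not measured. The genes that share the element changed in both directions under the label KGN, as their values below show. The part of the element in their responses was not tested.

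The levels of the classes lay far apart. In the untreated libraries labelled KGN the mean FPKM, a level per gene length, ran among the cytosolic members from 9.8 for HARS (histidine) to 159 for GARS (glycine). AARS stood at 130, NARS at 116 and IARS at 111. Among the mitochondrial members it ran from 1.04 for SARS2 (serine) to 52.7 for IARS2 (isoleucine), and all but IARS2 lay at or below the 13.1 of YARS2 (tyrosine). Under the label COV434, AARS was highest at 126, followed by TARS at 98.4 and GARS at 95.6, with overlapping control libraries in all 3.

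Summed over the class, the cytosolic members reached 1096, 1152 and 1160 FPKM in the control libraries labelled KGN and 1242, 1283 and 1238 FPKM in the treated ones. The mitochondrial members summed to 153.8, 161.4 and 163.1 FPKM in the controls and to 146.5, 153.7 and 148.4 FPKM with 77-39. The treated libraries lay above every control for the cytosolic sum and below every control for the mitochondrial sum. The ratio of the sums was 7.13 ± 0.015 (SD, n = 3) in the controls and 8.39 ± 0.078 (SD, n = 3) in the treated libraries.

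In the libraries labelled COV434 the cytosolic sum was 1028, 1030 and 920.4 FPKM in the controls and 1138, 997.8 and 1049 FPKM with 77-39, so that the groups overlapped. The mitochondrial sum was 182.8, 178.6 and 185.3 FPKM in the controls and 168.9, 162.8 and 170.6 FPKM with 77-39, without overlap. Within it the mean of IARS2 went from 30.5 to 20.4 FPKM and that of CARS2 from 19.4 to 15.9 FPKM. Of the 15 mitochondrial members tested 7 lay above 0 and 8 below, with a median log2 difference of 0.00. The ratio of the sums was 5.45 ± 0.43 (SD, n = 3) in the controls and 6.34 ± 0.35 (SD, n = 3) in the treated libraries. These sums and ratios describe each library and were not tested.

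A sum follows its most abundant genes. GARS alone made up 14% ± 0.191 (SD, n = 3) of the cytosolic sum in the control libraries labelled KGN and 19.7% ± 0.164 (SD, n = 3) in the treated ones. Without GARS the ratio was 6.13 ± 0.00712 and 6.74 ± 0.0552 in these groups, and the log2 ratio of the treated to the control cytosolic sum went from 0.14 to 0.04. On the mean of log2(FPKM + 1) over the class the cytosolic difference was 0.06 and the mitochondrial difference −0.08.

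**Figure D1:**
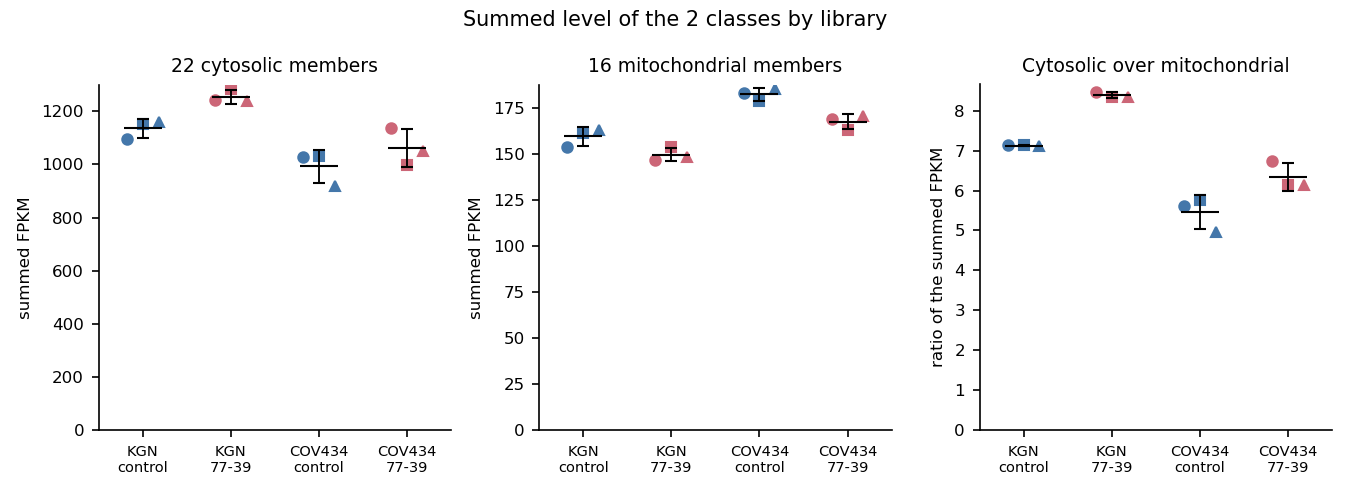
Summed FPKM of the 22 cytosolic members, of the 16 mitochondrial members, and the ratio of both sums, for each of the 12 libraries. Points are libraries (circle, square and triangle for libraries 1, 2 and 3), bars the mean with the SD. In the libraries labelled KGN the ratio lies between 7.11 and 7.14 in the controls and between 8.34 and 8.48 with 77-39.

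The first comparison asks how 77-39 changed the classes in the libraries labelled KGN. Cytosolic synthetase genes changed in both directions, and no mitochondrial one rose. With limma on log2(FPKM + 1), WARS rose 1.97-fold and GARS 1.55-fold, while AARS fell to 0.562 times its control level. Of the 22 cytosolic members 8 rose, 3 fell and 11 did not pass an adjusted p of 0.05. Of 15 mitochondrial members tested 0 rose, 5 fell and 10 did not pass. Among all 12671 genes tested, 17.6% rose and 16.4% fell. The median log2 difference was 0.01 over the cytosolic members, −0.12 over the mitochondrial members and 0.01 over all genes tested.

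WARS, which charges tryptophan and is known as an interferon-induced synthetase, stood at 21.36, 22.43 and 21.40 FPKM in the controls and at 43.17, 41.79 and 43.58 FPKM with 77-39. Its log2 difference was 0.95 ± 0.04 (SE, adjusted p = 9.13e-05). It was the member with the largest rise.

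AARS, the alanine enzyme, stood at 122.8, 131.1 and 134.8 FPKM in the controls and at 75.52, 74.72 and 68.34 FPKM with 77-39. The log2 difference came to −0.82 ± 0.06 (SE, adjusted p = 0.000333). No other member fell by as much, and AARS went from the second highest level among the members to below NARS, IARS, SARS and EPRS.

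GARS, the dual-compartment glycine enzyme, stood at 152.4, 163.3 and 160.1 FPKM in the controls and at 245.5, 253.0 and 241.0 FPKM with 77-39. This gave a log2 difference of 0.63 ± 0.05 (SE, adjusted p = 0.000427). NARS, the asparagine enzyme, went from 111.9, 116.7 and 119.1 FPKM to 142.9, 157.1 and 148.8 FPKM, a log2 difference of 0.36 ± 0.05 (SE, adjusted p = 0.00328). Both had treated libraries above every control.

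EPRS, the bifunctional enzyme for glutamate and proline, went from 66.01, 68.29 and 71.46 FPKM to 86.94, 89.46 and 82.08 FPKM. Its log2 difference was 0.32 ± 0.05 (SE, adjusted p = 0.00474). The other cytosolic members that rose were FARSB (0.22), the beta subunit of the phenylalanine enzyme, IARS (0.22), RARS (0.19), the arginine enzyme, and SARS (0.17), the serine enzyme, on the log2 scale. Besides AARS, QARS (−0.30), the glutamine enzyme, and HARS (−0.16) fell.

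The remaining cytosolic members did not pass the test. CARS (0.14), YARS (−0.13) and MARS (−0.12) had no overlap between treated and control libraries, and the others were AIMP1 (0.11), LARS (0.01), the leucine enzyme, KARS (0.01), TARS (−0.01), AIMP2 (−0.06), DARS (−0.09), the aspartate enzyme, VARS (−0.10), the valine enzyme, and FARSA (−0.13), the alpha subunit of the phenylalanine enzyme. FARSB rose while the point estimate for its partner subunit was below 0.

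The cytosolic synthetases DARS, EPRS, IARS, KARS, LARS, MARS, QARS and RARS are held with AIMP1 and AIMP2 in the multisynthetase complex. Of these 10 members 3 rose and 1 fell, with log2 differences from −0.30 to 0.32. Of the 12 members outside the complex 5 rose and 2 fell, with differences from −0.82 to 0.95. The medians were 0.01 and 0.07, and the shares of all genes were 17.6% and 16.4%. The difference between the subgroups was not tested. The members with the 3 largest changes, WARS, AARS and GARS, all stand outside the complex.

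The genes with a CARE element near the start showed differences of 0.36 (NARS), 0.22 (IARS), 0.14 (CARS), −0.01 (TARS), −0.12 (MARS) and −0.82 (AARS). Of these 6, 2 rose, 1 fell and 3 did not pass, where 17.6% of all genes rose and 16.4% fell.

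TARS2, the mitochondrial threonine enzyme, stood at 9.181, 8.786 and 8.774 FPKM in the controls and at 6.596, 7.308 and 6.998 FPKM with 77-39. Its log2 difference was −0.32 ± 0.05 (SE, adjusted p = 0.00425). HARS2, the histidine enzyme, went from 9.933, 9.807 and 9.506 FPKM to 7.877, 8.537 and 8.069 FPKM, a log2 difference of −0.23 ± 0.05 (SE, adjusted p = 0.0104). In TARS2 and HARS2 every treated library lay below every control. HARS2 shares 11.7% of its exonic bases with HARS on the opposite strand. The labelled TruSeq RNA kit keeps no strand, so reads of HARS and HARS2 cannot be told apart there.

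AARS2, the alanine enzyme, went from 7.931, 7.871 and 8.133 FPKM to 6.911, 6.087 and 6.596 FPKM, a log2 difference of −0.25 ± 0.05 (SE, adjusted p = 0.012). LARS2, the leucine enzyme, went from 9.233, 9.694 and 10.46 FPKM to 8.086, 8.252 and 8.023 FPKM, a log2 difference of −0.24 ± 0.05 (SE, adjusted p = 0.0142). CARS2, the cysteine enzyme, went from 6.420, 6.446 and 6.135 FPKM to 5.606, 5.648 and 5.495 FPKM, a log2 difference of −0.16 ± 0.04 (SE, adjusted p = 0.033). The falls were small, with treated means of 0.782 to 0.881 times the control means among the 5 genes.

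The other mitochondrial members did not pass. EARS2 (−0.14), the glutamate enzyme, VARS2 (−0.16), FARS2 (−0.12), IARS2 (−0.11) and MARS2 (−0.02) lay below 0, and PARS2 (0.17), the proline enzyme, YARS2 (0.16), WARS2 (0.13), RARS2 (0.11) and NARS2 (0.05) lay above 0. SARS2, at 0.6677, 1.232 and 1.227 FPKM in the controls and 0.7676, 0.5972 and 0.8701 FPKM with 77-39, had a mean under the 1 FPKM needed to be tested. Other annotated genes, chiefly AC011455.2 on the same strand, share 57% of its exonic bases.

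**Figure D2:**
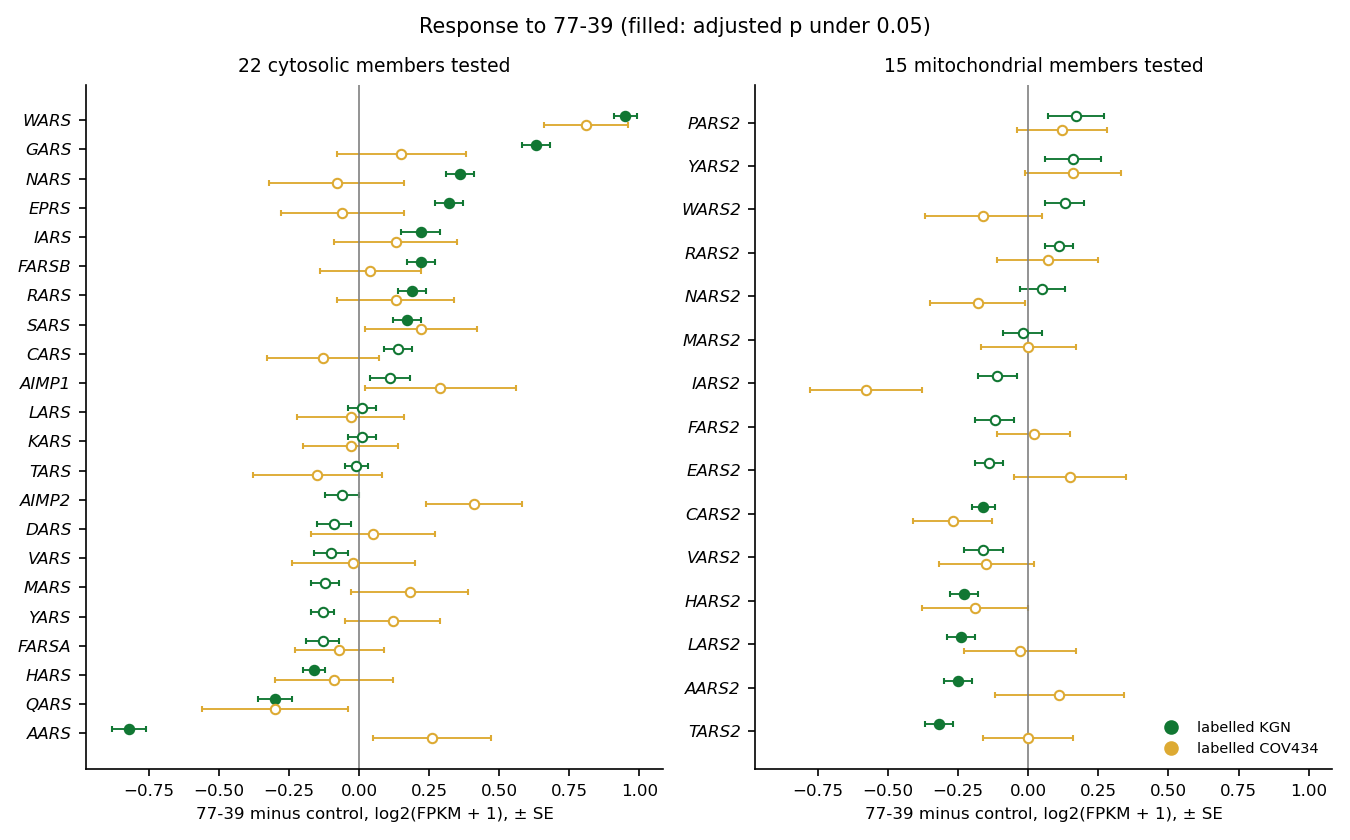
Log2(FPKM + 1) difference of 77-39 minus control with its SE for each member tested, in the libraries labelled KGN (green) and COV434 (yellow), with filled points past an adjusted p of 0.05 by limma. WARS lies far to the right in both, at 0.95 and 0.81, and AARS lies at −0.82 under KGN but at 0.26 under COV434.

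Without overlap between treated and control libraries, 9 cytosolic members lay above and 5 below, and 1 mitochondrial member lay above and 7 below. Among all genes tested 26.3% lay above and 23.4% below. WARS, AARS and GARS passed an adjusted p of 0.05 under every alternative that was run. The calls of the other 13 members were lost when the 12 libraries were fitted as 1 model, which left 3 cytosolic and 0 mitochondrial calls. Among all 12671 genes tested that model left 570 rises and 667 falls, against 2230 and 2077 in the main fit. The cytosolic calls also fell from 11 to 7 without control 2, control 3 or treated 1, and to 6 without treated 2. Over all genes, 1380 rises and 1371 falls were left without treated 2. With median-ratio scaling 6 cytosolic members rose and 5 fell, where 2007 of all genes rose and 2344 fell.

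A pair of libraries labelled COV434 varied together over the members. Control 1 was the highest or the lowest of its group in 34 of the 37 members tested, and treated 3 was so in 35, where the other 10 libraries were so in 11 to 32. Of the 20 members with their highest control level in control 1, 18 had their highest treated level in treated 3. Of the 14 with the lowest control level in control 1, 13 had the lowest treated level in treated 3. The share of reads from mitochondrially encoded genes ran from 7.71% to 13.51% under this label and from 7.3% to 8.81% under KGN. The part of these differences in the results was not tested.

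In the libraries labelled COV434, no member passed an adjusted p of 0.05 by limma, where 0.00829% of the 12060 genes tested rose and 0.0332% fell. At an unadjusted p under 0.05, 2 cytosolic members lay higher (WARS and AIMP2) and 1 mitochondrial member lay lower (IARS2), against 3.52% of all genes higher and 4.49% lower. The median log2 difference was 0.04 over the cytosolic members, 0.00 over the mitochondrial members and −0.02 over all genes. With 1 library left out the cytosolic median ran from −0.06 (without treated 1) to 0.11 (without control 2), and the mitochondrial one from −0.07 to 0.04. The SE of a member ran from 0.13 to 0.27, against 0.04 to 0.10 in the libraries labelled KGN, so that a change of the size seen there in most members was not detectable here.

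WARS stood at 28.10, 23.24 and 22.62 FPKM in the controls and at 44.25, 40.76 and 46.48 FPKM with 77-39. The log2 difference was 0.81 ± 0.15 (SE, limma adjusted p = 0.126), and every treated library lay above every control. The library numbers were taken to pair these libraries, from same-numbered correlations over all genes of 0.4, 0.474 and 0.166, although the third stood beside 0.154 with another number and the members set control 1 beside treated 3. With the number as a block WARS passed by limma (adjusted p = 0.0475), a call that rests on this pairing, and was the 1 member to do so, where 0.323% of all genes rose and 0.398% fell. Over the alternatives its adjusted p by limma ran from 0.00122, with all 12 libraries in 1 model, to 0.644, without control 3.

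AIMP2, a scaffold of the complex, stood at 32.04, 44.78 and 39.71 FPKM in the controls and at 49.53, 51.53 and 53.76 FPKM with 77-39. Its log2 difference was 0.41 ± 0.17 (SE, limma adjusted p = 0.558). It shares 28.9% of its exonic bases with EIF2AK1 on the opposite strand, and the labelled TruSeq RNA kit keeps no strand, so reads of both genes cannot be told apart there. EIF2AK1 had a log2 difference of 0.01. AARS stood at 161.0, 111.4 and 106.0 FPKM in the controls and at 147.9, 129.9 and 171.9 FPKM with 77-39, with a log2 difference of 0.26 ± 0.21 (SE, limma adjusted p = 0.865) and overlapping groups.

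IARS2, the mitochondrial isoleucine enzyme, stood at 27.25, 34.72 and 29.66 FPKM in the controls and at 25.26, 20.59 and 15.41 FPKM with 77-39. Its log2 difference was −0.58 ± 0.20 (SE, limma adjusted p = 0.458). CARS2 went from 20.84, 17.14 and 20.13 FPKM to 16.11, 15.29 and 16.17 FPKM, a log2 difference of −0.27 ± 0.14 (SE, limma adjusted p = 0.731). NARS2, the asparagine enzyme, stood at 12.98, 18.88 and 17.02 FPKM in the controls and at 13.81, 15.07 and 13.50 FPKM with 77-39, a log2 difference of −0.18 ± 0.17 (SE, limma adjusted p = 0.897). In IARS2 and CARS2, but not in NARS2, every treated library lay below every control.

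The other members had log2 differences from −0.30 (QARS) to 0.29 (AIMP1). Without overlap, 2 cytosolic members lay above and 2 mitochondrial members below, where 6.23% of all genes lay above and 8.16% below. SARS2, again not tested, stood at 0.7097, 0.5462 and 0.444 FPKM in the controls and at 0.4341, 0.4524 and 0.3981 FPKM with 77-39. With control 1 and treated 3 both left out, 0 members passed, and WARS had a log2 difference of 0.86.

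**Figure D3:**
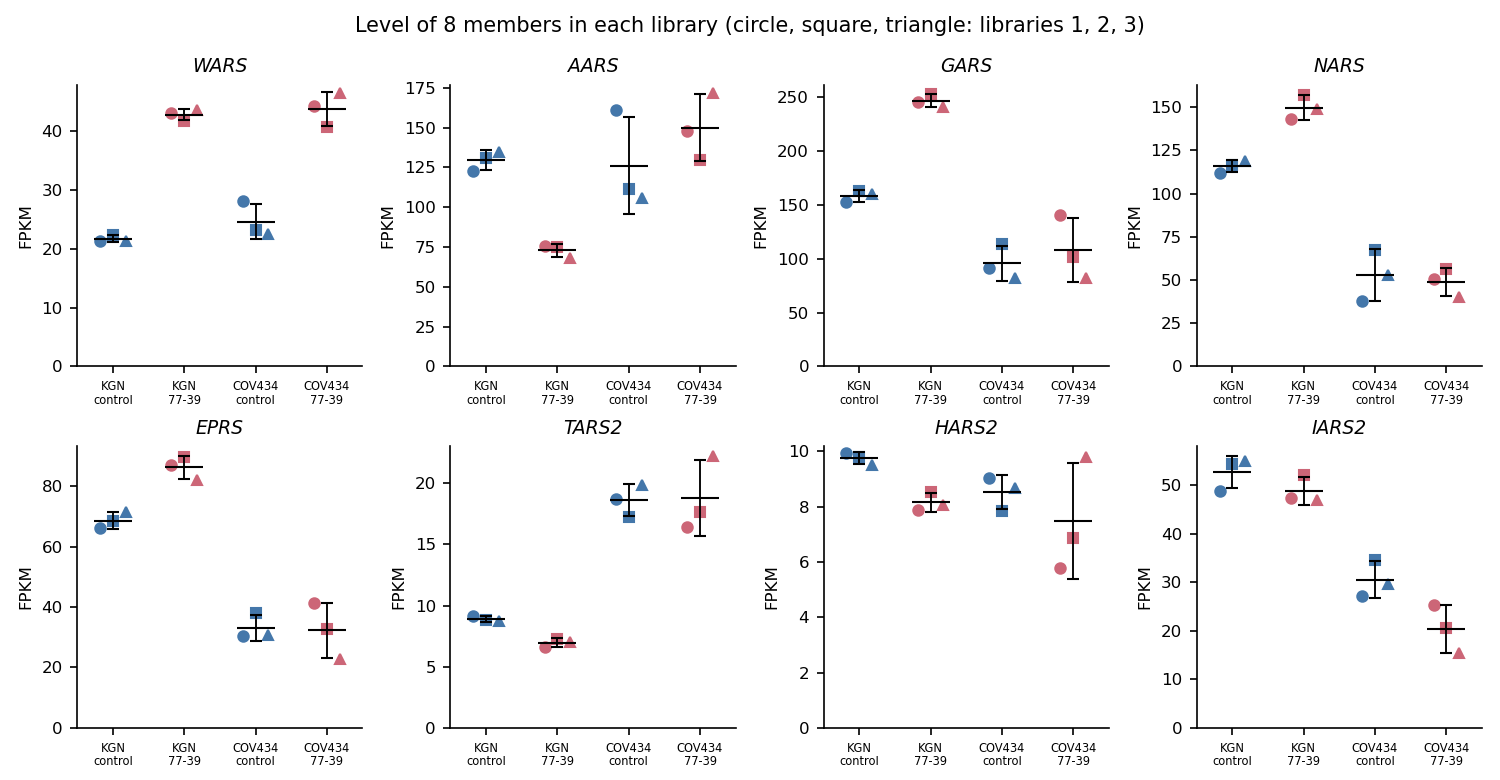
FPKM of 5 cytosolic (WARS, AARS, GARS, NARS, EPRS) and 3 mitochondrial members (TARS2, HARS2, IARS2) in each of the 12 libraries, with the mean and SD of each group. The treated libraries labelled KGN lie between 41.79 and 43.58 for WARS against 21.36 to 22.43 in the controls, while the libraries labelled COV434 spread more widely in every panel.

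The third comparison asks whether the response differed between the lines. AARS was the 1 member for which the difference of the responses passed by limma over all 12 libraries, with the response in the libraries labelled KGN lying 1.09 lower on the log2 scale (−1.09 ± 0.22 SE, adjusted p = 0.0251). Among all 13127 genes tested, 1.85% had a higher and 1.74% a lower response in the libraries labelled KGN. The adjusted p of AARS by limma ran from 0.00271 to 0.0767 over the alternatives, and it lay above 0.05 without filter, with quantile normalization, without any 1 of the 6 libraries labelled KGN and without control 3 labelled COV434.

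The next members by p were AIMP2, with a difference of −0.47 ± 0.16 (SE, limma adjusted p = 0.15), and IARS2, with 0.47 ± 0.22 (SE, limma adjusted p = 0.29). GARS, which rose in the libraries labelled KGN, had a difference of 0.48 ± 0.25 (SE, limma adjusted p = 0.348). WARS had a difference of 0.14 ± 0.14 (SE, limma adjusted p = 0.66), so that its rise was not shown to differ between the lines. Over all members the differences ran from −1.09 to 0.48, with medians of 0.02 for the cytosolic and −0.01 for the mitochondrial members, and 0.01 over all genes.

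Taken by sign alone, 7 cytosolic members had a log2 difference above 0 in both lines, 5 below 0 in both and 10 of opposite sign. The mitochondrial members had 3 above 0 in both, 6 below 0 in both and 6 of opposite sign. The sign was the same in 55.7% of the 10235 genes tested in both lines, so the share among the members lay near that of all genes.

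The amino acids with 1 enzyme in each compartment allowed the classes to be set side by side. The cytosolic log2 difference lay above the mitochondrial one in 9 of 12 pairs under the label KGN and in 10 of 12 under COV434. The leucine pair is among the latter, although its enzymes had the same value to 2 decimals. The pair for serine could not be compared because SARS2 was not tested. The widest gap was that of tryptophan, where the differences were 0.95 for WARS and 0.13 for WARS2 under the label KGN, then 0.81 and −0.16 under COV434.

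For isoleucine, in the same order, they were 0.22 for IARS and −0.11 for IARS2, then 0.13 and −0.58. For asparagine (NARS and NARS2) they were 0.36 and 0.05, then −0.08 and −0.18. For threonine (TARS and TARS2) they were −0.01 and −0.32, then −0.15 and 0.00. Threonine was thus a pair where the order turned between the lines.

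For cysteine (CARS and CARS2) they were 0.14 and −0.16, then −0.13 and −0.27. For leucine (LARS and LARS2) they were 0.01 and −0.24, then −0.03 and −0.03. Arginine, histidine and valine had gaps of 0.08, 0.07 and 0.06 under the label KGN, then 0.05, 0.10 and 0.13 under COV434, all with the cytosolic enzyme higher.

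The pairs with the mitochondrial difference above the cytosolic one in the libraries labelled KGN were alanine, methionine and tyrosine. Alanine had −0.82 for AARS and −0.25 for AARS2, so that both enzymes fell, then 0.26 and 0.11. Methionine (MARS and MARS2) had −0.12 and −0.02, then 0.18 and 0.00, and tyrosine (YARS and YARS2) had −0.13 and 0.16, then 0.12 and 0.16. The gaps within pairs were not tested.

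**Figure D4:**
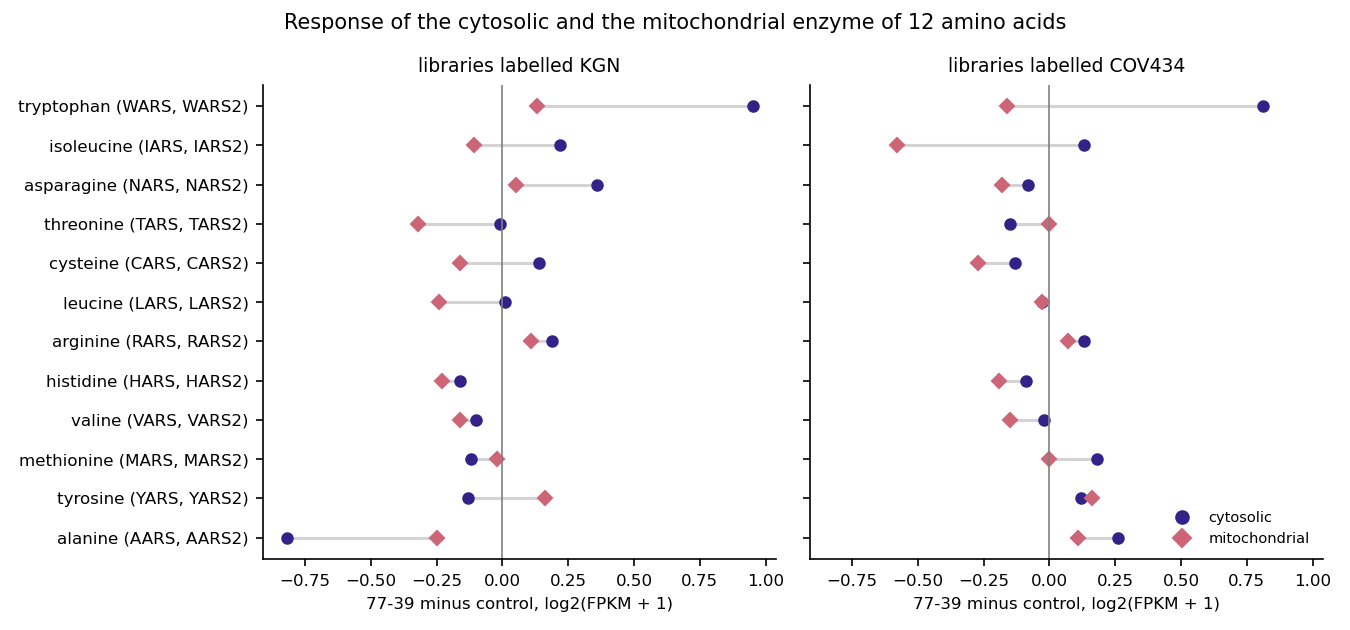
Log2(FPKM + 1) difference of 77-39 minus control for the cytosolic (circle) and the mitochondrial (diamond) enzyme of 12 amino acids, in the libraries labelled KGN and COV434. The circle lies to the right of the diamond in 9 pairs in each panel, with the leucine pair level in the second, and the alanine pair lies far to the left in the first panel only.

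The untreated libraries were compared to describe the level from which each line started. Differences between the lines were larger than the responses to 77-39 in many members and went both ways in each class. Of 22 cytosolic members 8 were higher and 4 lower in the libraries labelled KGN, and of 15 mitochondrial members 3 were higher and 6 lower, where among all 13098 genes tested 32.6% were higher and 36.4% lower. The authors' library totals stood at 1.073 to 1.103 times the recovered reads under the label KGN, but at 0.911 to 0.978 times under COV434. On the recovered reads with voom, which removes this difference, the median of all genes was 0.18 in place of −0.02, 11 cytosolic members were higher and 4 lower, and 5 mitochondrial members were higher and 5 lower. With quantile normalization 12 cytosolic members were higher and 2 lower, and 4 mitochondrial members higher and 5 lower. Without control 1 labelled COV434 the counts were 11 and 5, then 5 and 6. Over all genes tested the counts moved as well, from 4271 higher and 4768 lower of 13098 to 5248 and 4028 with voom. They were 4899 and 4152 with quantile normalization, and 4918 and 5181 of 13130 without control 1 labelled COV434.

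IARS stood at 101.7, 116.7 and 113.9 FPKM under the label KGN against 44.09, 51.55 and 43.35 FPKM under COV434, a log2 difference of 1.24 ± 0.11 (SE, adjusted p = 7.74e-05). EPRS stood at 66.01, 68.29 and 71.46 FPKM against 30.43, 37.93 and 30.67 FPKM, a log2 difference of 1.04 ± 0.11 (SE, adjusted p = 0.000212). LARS stood at 30.58, 30.79 and 31.75 FPKM against 16.72, 21.35 and 17.82 FPKM, a log2 difference of 0.71 ± 0.11 (SE, adjusted p = 0.00108). These 3 enzymes of the multisynthetase complex lay higher in every library labelled KGN, as did MARS and DARS. Of the 10 members of the complex 5 were higher and 1 lower, and of the 12 outside it 3 and 3. Among all genes 32.6% were higher and 36.4% lower, and the difference between the subgroups was not tested. The call of DARS was lost under at least 1 alternative (highest limma adjusted p = 0.0639).

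AIMP2, a scaffold of the same complex, went the other way, at 11.88, 12.74 and 13.30 FPKM against 32.04, 44.78 and 39.71 FPKM, a log2 difference of −1.53 ± 0.14 (SE, adjusted p = 6.74e-05). EIF2AK1, with which it shares 28.9% of its exonic bases, stood at 18.80, 18.70 and 20.03 FPKM against 58.69, 57.63 and 65.28 FPKM, a log2 difference of −1.61, and reads of both genes cannot be told apart where they overlap. TARS, outside the complex, stood at 34.18, 32.40 and 33.28 FPKM against 73.63, 126.7 and 94.81 FPKM, a log2 difference of −1.50 ± 0.19 (SE, adjusted p = 0.000469). NARS (1.16), GARS (0.74) and SARS (0.43) were also higher, and VARS (−0.76) and FARSA (−0.70) lower, in the libraries labelled KGN. The calls of VARS and FARSA were lost under at least 1 alternative (highest limma adjusted p = 0.23 and 0.153).

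FARS2, the mitochondrial phenylalanine enzyme, showed the widest difference of all members, at 1.908, 1.973 and 2.018 FPKM against 14.11, 13.77 and 13.04 FPKM. The log2 difference stood at −2.30 ± 0.07 (SE, adjusted p = 4.67e-07). CARS2 stood at 6.420, 6.446 and 6.135 FPKM against 20.84, 17.14 and 20.13 FPKM, a log2 difference of −1.47 ± 0.10 (SE, adjusted p = 1.54e-05). TARS2 stood at 9.181, 8.786 and 8.774 FPKM against 18.72, 17.26 and 19.85 FPKM, a log2 difference of −0.98 ± 0.08 (SE, adjusted p = 6.09e-05).

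Both enzymes for threonine, TARS and TARS2, were thus lower in the libraries labelled KGN, and both for isoleucine were higher. IARS2 stood at 48.89, 54.36 and 54.98 FPKM against 27.25, 34.72 and 29.66 FPKM, a log2 difference of 0.77 ± 0.12 (SE, adjusted p = 0.00105). NARS2 stood at 10.26, 8.781 and 8.331 FPKM against 12.98, 18.88 and 17.02 FPKM, a log2 difference of −0.76 ± 0.15 (SE, adjusted p = 0.00393), opposite to NARS. MARS2 (0.43) and RARS2 (0.48) were also higher and WARS2 (−0.84) and PARS2 (−0.29) lower. The call of RARS2 was lost under at least 1 alternative (highest limma adjusted p = 0.063). PARS2 had an adjusted p of 0.0492 by limma. This value rose above 0.05 with the block and under every other alternative but median-ratio scaling and the leaving out of control 2 labelled COV434.

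**Figure D5:**
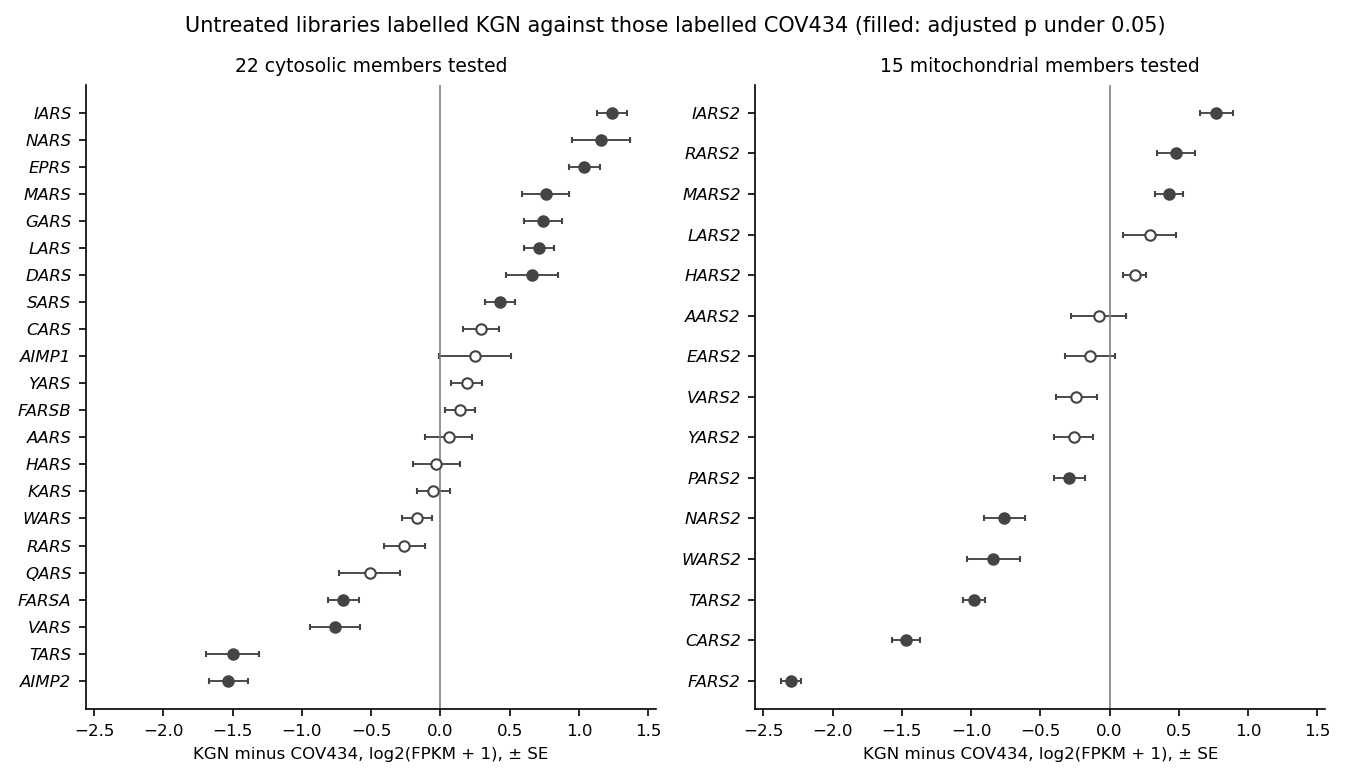
Log2(FPKM + 1) difference with its SE between the untreated libraries labelled KGN and those labelled COV434 for each member tested, with filled points past an adjusted p of 0.05 by limma. FARS2 lies farthest to the left at −2.30, and IARS farthest to the right at 1.24.

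Genes that work with the synthetases were described by lists. The shares to read their counts against in the libraries labelled KGN are the 17.6% of all genes that rose and the 16.4% that fell. Of 10 charging partners tested, 2 rose and 0 fell, a share of rises near that of all genes. XPOT, which exports tRNA from the nucleus, went from 56.56, 60.33 and 60.40 FPKM to 77.20, 79.29 and 75.28 FPKM, a log2 difference of 0.38 ± 0.05 (SE, adjusted p = 0.0018). QRSL1, a subunit of the mitochondrial amidotransferase that makes glutamine-charged tRNA from the product of EARS2, went from 6.212, 6.086 and 5.423 FPKM to 7.469, 7.774 and 7.426 FPKM, a log2 difference of 0.31 ± 0.06 (SE, adjusted p = 0.00763). Their adjusted p by limma reached 0.16 and 0.0864 under an alternative, so neither call held throughout. EEF1E1, the further scaffold of the complex, had a log2 difference of 0.28 (limma adjusted p = 0.127) under the label KGN and of 0.01 under COV434.

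Of the elongation factors, which carry charged tRNA to the ribosome or move it, 1 of 4 cytosolic ones rose in the libraries labelled KGN (EEF1B2, 0.17) and 1 fell (EEF2, −0.22). Of 8 mitochondrial translation factors 2 rose (GFM1, an elongation factor, 0.17, and MTRF1L, a release factor, 0.30). Another 2 fell (TUFM, an elongation factor, −0.35, and MRRF, a ribosome recycling factor, −0.16). These counts lay near the shares of all genes, and each of the 6 calls was lost under an alternative. TUFM, the mitochondrial factor that delivers charged tRNA, went from 93.15, 100.9 and 98.85 FPKM to 76.59, 77.74 and 75.32 FPKM.

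Of 17 regulators of the GCN2 and ATF4 path tested in the libraries labelled KGN, 8 rose and 1 fell, with a median log2 difference of 0.29, against 17.6% and 16.4% of all genes and their median of 0.01. Of these calls, those of ATF3, EIF2AK3 and SESN2 held under every alternative run. All the others, the 1 fall included, were lost under at least 1. Among these were the calls of DDIT3 and CEBPG (highest limma adjusted p = 0.232 and 0.13). ATF3 went from 8.331, 8.649 and 8.213 FPKM to 26.18, 26.99 and 26.25 FPKM (1.55 ± 0.04 SE, limma adjusted p = 1.21e-05). DDIT3, which encodes CHOP, went from 53.32, 54.50 and 54.70 FPKM to 98.16, 97.83 and 101.3 FPKM, and CEBPG, a partner of ATF4, from 28.31, 28.86 and 28.75 FPKM to 37.77, 38.19 and 37.72 FPKM. ATF4 itself, named here after its values were seen, had a log2 difference of −0.18 ± 0.06 (SE, limma adjusted p = 0.0541), and its level of mRNA says nothing of its translation.

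Of 18 ATF4-linked genes of amino acid synthesis and import tested, 11 rose and 2 fell, with a median of 0.24, again against 17.6% and 16.4%. The calls of SLC3A2, SLC7A11 and SLC7A5, another amino acid exchanger subunit, held under every alternative run, and the other 10 were lost under at least 1. SLC3A2, the heavy chain of amino acid exchangers, went from 45.67, 49.04 and 45.34 FPKM to 99.15, 100.9 and 105.1 FPKM. SLC7A11, the cystine importer, had a log2 difference of 0.89 and SLC1A4, an importer of alanine, serine and cysteine, one of 0.56. Of the synthetase genes with the element near the start, AARS fell, NARS and IARS rose, and CARS, TARS and MARS did not pass, and the calls of NARS and IARS were lost under an alternative (highest limma adjusted p = 0.262 and 0.499).

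In the libraries labelled COV434, 0 genes of these lists passed by limma (no block), and at an unadjusted p under 0.05 the regulators had 1 higher and 1 lower of 18 and the ATF4-linked genes 3 higher and 2 lower of 19. EIF2AK2, a kinase of the same initiation factor, had a log2 difference of 0.59 and CHAC1 one of −0.71. PHGDH, the first enzyme of serine synthesis, went from 39.01, 40.66 and 30.10 FPKM to 73.78, 75.41 and 88.87 FPKM, a log2 difference of 1.10 ± 0.17 (SE, limma adjusted p = 0.0769, and 0.0459 with the block). SLC38A2 and PYCR1 followed with −0.71 and 0.45. The difference between the lines passed for ATF3 (1.79), SESN2 (0.91) and EIF2AK3 (0.86) among 18 regulators, and for SLC3A2 (1.14), VLDLR (0.75) and PHGDH (−1.22) among 19 ATF4-linked genes, where 1.85% of all genes had a higher and 1.74% a lower response under KGN. With the block, EIF2AK3 and VLDLR no longer passed (limma adjusted p = 0.0513 and 0.0859), while DDIT3, CHAC1 and SLC7A11 did (limma adjusted p = 0.0475, 0.0355 and 0.0457). This block also sets same-numbered libraries labelled KGN together, which the numbers were not taken to pair.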

How the data were processed

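RNA from 12 libraries was sequenced, and the authors deposited 1 table of FPKM (reads scaled to gene length and library total) for 58735 genes. Per the labels, reads were aligned with HISAT2 2.0.5, and the builds named are of mouse, although the gene identifiers are human and all 58735 positions match GENCODE on GRCh38. FPKM times gene length gave whole reads, within 0.05, for 99.95% to 100% of the values per library, and depth was 15547851 to 18280415 reads. How strand and multi-mapped reads were counted was not given in the sources used here.

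Values were tested as log2(FPKM + 1), which understates the change of low genes, with limma 3.58.1 in R 4.3.3 (trended variance, two-sided, Benjamini-Hochberg over all genes averaging 1 FPKM or more over the libraries fitted). Each line was fitted alone, the difference of the responses over all 12 libraries, and the lines over the 6 controls. The fits were checked on simulated data. Class medians, sums and pairs had no test.

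Same-numbered libraries, numbered in the titles, were compared by the correlation of their deviations from the group means over all genes tested. These were −0.0164, −0.018 and −0.019 under the label KGN but 0.4, 0.474 and 0.166 under COV434, so the numbers were taken to pair the latter only.

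All 38 members were named. Values per library were given for up to 5 members per class with the smallest p among those past an adjusted p of 0.05, for up to 3 where a comparison had none, and for up to 3 genes of a list. Members and lists were chosen with earlier results of these data known. Promoter windows (RefSeq, GRCh38.p14) were matched by current symbol. The values of 1 listed gene and 1 promoter sequence are not reported here. Alternatives covered the pseudocount, filter, scaling, recovered reads with voom, libraries fitted, replicate block and leaving out each library.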

Additional observations from a re-analysis of the deposited data

Results flagged for a closer look

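The response of AARS, the alanine enzyme, differed between the lines in the main fit. The log2 difference of the responses (KGN minus COV434) was −1.09 by the limma interaction term over all 12 libraries (SE 0.22, adjusted p = 0.0251). Over the alternatives this adjusted p by limma ran from 0.00271 to 0.0767. The call was lost without filter, with quantile normalization, without any 1 library labelled KGN and without control 3 labelled COV434. In the libraries labelled KGN, AARS was lower in 3 of 3 treated libraries than in every control, with a log2 difference of −0.82, while in those labelled COV434 it was 0.26 with overlapping groups, where control 1 (161.0 FPKM) stood above the other controls (111.4 and 106.0 FPKM).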

How the results depend on the processing

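Under the label KGN, 1 model of all 12 libraries left 3 cytosolic and 0 mitochondrial members past the threshold, where a fit of that line alone gave 11 and 5. The library numbers did not pair these libraries, and with the replicate block 7 cytosolic and 4 mitochondrial members passed. With that block 0 of 4 cytosolic elongation factors passed, and of the ATF4-linked genes 9 rose and 1 fell in place of 11 and 2. With 1 library left out the cytosolic count ran from 6 to 11 and the mitochondrial count was 4. Calls over all genes tested fell as well. From 2230 higher and 2077 lower they went to 570 and 667 in the 1 model, and to 1662 and 1615 with the block. With 1 library left out they ran from 1380 and 1371 (without treated 2) to 2058 and 2070 (without control 1). The cytosolic median log2 difference was 0.07 with quantile normalization and 0.00 to 0.03 with 1 library left out. The mitochondrial median was −0.16 with a pseudocount of 0.1 and −0.16 with voom, and −0.15 to −0.11 with 1 library left out. The log2 ratio of the summed cytosolic FPKM went from 0.14 to 0.06 on the mean of log2(FPKM + 1), to 0.04 without GARS and to 0.05 without KARS, GARS, AIMP1 and AIMP2.

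Under the label COV434, 1 cytosolic member, WARS, passed in 1 model of all 12 libraries, and the same 1 member with the replicate block. Of the 12060 genes tested, 218 rose and 270 fell in that model, and 39 rose and 48 fell with the block. With 1 library left out, the medians ran from −0.06 to 0.11 for the cytosolic and from −0.07 to 0.04 for the mitochondrial members, and the log2 ratio of the summed mitochondrial FPKM went from −0.12 to −0.06 on the mean of log2(FPKM + 1). The difference between the lines passed for 0 cytosolic members without filter and 0 with quantile normalization, for 0 to 1 with 1 library left out, and for 1 mitochondrial member (WARS2) when control 1 and treated 3 were left out together, a choice made after seeing the data. Between the untreated lines, KARS went from −0.05 to 0.38 with quantile normalization. Besides WARS and PARS2, the block changed no call of a member under COV434, in the difference between the lines or between the untreated lines. Between the untreated lines it sets same-numbered controls of both lines together, a pairing that the labels do not give. The cause of these changes was not tested. Depth bore most on SARS2, which had 21 to 78 reads per library and was not tested.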
